A study of Mus musculus with 18 samples.

Results

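The pluripotency transcription factors described here are Nanog, Pou5f1 (Oct4), Zfp42 (Rex1), Klf5, Nr5a2 and Mybl2, followed in mouse embryonic stem (ES) cells and in the embryoid bodies (EBs) made from them. They were taken by gene symbol, whatever their values: every cDNA clone that the probe table assigns to 1 of these symbols alone. This gave 8 clones for 6 genes, among 15360 clones and 7142 genes with a clone of their own. Nr5a2 had 3 clones, named here by their EST as BG069809, BG066829 and BG070472, and each of the other genes had 1. A further clone that the table gives to both Atp8b1 and Mybl2 was left out. Sequence on the array is that of EST clones, and a cDNA spot does not separate Pou5f1 or Zfp42 from pseudogenes of near identical sequence.

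Nanog and Pou5f1 stand at the centre of the network that keeps ES cells pluripotent, where Pou5f1 binds an octamer in DNA together with Sox2. Zfp42 is a zinc finger factor long used as a marker of undifferentiated ES cells, and is lost early as cells leave that state. Klf5 and Nr5a2 are a Krüppel-like factor and an orphan nuclear receptor that sustain Pou5f1 and Nanog, and Mybl2 (B-Myb) drives cell cycle genes in rapidly dividing cells. Leukaemia inhibitory factor (LIF) holds mouse ES cells in self-renewal through gp130 and STAT3, and its removal permits differentiation.

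Cells of a single line, IMT11, were kept without feeders on gelatin in serum medium with LIF for Day 0 (D0), and EBs were formed from 1000 cells per hanging drop and grown for up to 4 days in that medium, either lacking LIF (D1-LIF to D4-LIF) or containing it (D1+LIF to D4+LIF). Each of these 9 conditions was hybridised on 2 arrays against a pooled control, once with the sample in Cy3 and once in Cy5, and each array is a pair of slides that carry different clones, every clone being spotted as 2 copies. Per the labels, LIF keeps a core of undifferentiated cells within the EBs. In RNA of whole EBs, fewer cells expressing a gene and less RNA per cell cannot be told apart. Values are ratios to the pooled control, likely sample over pool since the labels name the sample as the first channel, although neither the labels nor the methods state the direction. The pool is described as EBs of Days 1 to 4 in the labels and as all samples in the methods. A ratio given below is the geometric mean of both spots of a clone on 1 array, as deposited. Differences on the log2 scale were taken after setting the median of all clones with a value to 0 on each slide of each array.

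The arrays were uneven. Slide medians lay between -2.73 and 1.57 on the log2 scale over the 36 slides. The highest was that of slide 2 of the Cy5 array of D4+LIF, which also had the largest SD over clones of any slide 2, 1.41. Slide 1 of the Cy3 array of D0 stood apart with a median of -2.73 and an SD over clones of 2.23, where the other 17 Cy3 slides had medians between -0.48 and 0.06. Slide 1 of the Cy5 array of D2-LIF lacked 6565 of its 7680 clones and that of D1+LIF lacked 2855. These slides were centred on the clones left, with medians of -1.31 and 1.24, so centred values on them rest on part of the clones. Over all clones, the 2 arrays of a condition correlated at between -0.51 and 0.48 in log2 ratio, with a mean r of -0.10, where arrays of 1 dye had a mean r of 0.33 in Cy3 and 0.64 in Cy5. Each dye is therefore given apart below, and differences from D0 are also given with the Cy3 array of D0 left out. Nanog, Pou5f1, Zfp42 and the Nr5a2 clones BG069809 and BG066829 were printed on slide 1, and Klf5, Mybl2 and the Nr5a2 clone BG070472 on slide 2.

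**Figure D1:**
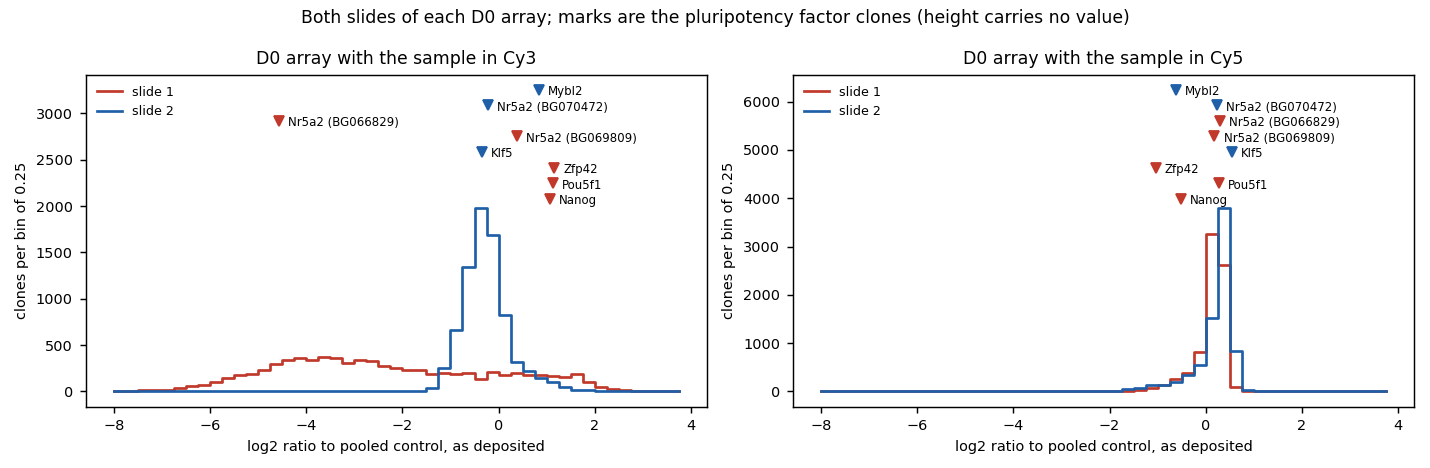
Distribution of the log2 ratio to the pooled control, as deposited, over the clones of slide 1 and slide 2 (clones per bin of 0.25) on the D0 array with the sample in Cy3 and the D0 array with the sample in Cy5, with a mark for each pluripotency factor clone in the colour of its slide (the height of a mark carries no value). Slide 1 of the Cy3 array is broad and centred at -2.73, with Nanog, Pou5f1 and Zfp42 near its upper end, while Nanog and Zfp42 lie at the lower end on the Cy5 array.

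The stretches upstream of Nanog and Zfp42 are shown because Pou5f1, itself one of the factors, is known to bind the octamer, and both stretches hold letters of it. They are the 250 bases before a RefSeq start site on build GRCm38.p6, at chr6:122707239-122707488 on the plus strand for Nanog and chr8:43307010-43307259 on the minus strand for Zfp42, written in the direction of transcription. Capitals mark TTTGCAT, the last 7 letters of the octamer ATTTGCAT, and CATTGT, a Sox-type motif, each searched on both strands.
Nanog: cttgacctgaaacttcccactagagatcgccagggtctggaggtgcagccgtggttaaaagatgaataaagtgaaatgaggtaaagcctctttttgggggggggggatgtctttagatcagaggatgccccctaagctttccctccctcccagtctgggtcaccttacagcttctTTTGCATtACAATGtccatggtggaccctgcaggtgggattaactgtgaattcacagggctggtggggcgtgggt
Zfp42: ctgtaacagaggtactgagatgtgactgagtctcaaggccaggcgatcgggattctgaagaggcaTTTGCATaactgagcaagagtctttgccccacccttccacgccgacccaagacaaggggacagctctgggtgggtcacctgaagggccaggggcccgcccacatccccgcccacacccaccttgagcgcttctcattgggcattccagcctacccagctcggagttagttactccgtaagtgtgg
In Nanog the TTTGCAT begins 75 bases before this start site and is followed, after 1 base, by ACAATG, the other strand of CATTGT. Nanog has another annotated start site, not shown, whose window also held TTTGCAT and CATTGT. In Zfp42 TTTGCAT begins 185 bases before the start site, and with the base in front of it completes the whole octamer. TTTGCAT occurred in 4.12% of the 32851 mouse promoters of the same length, the full octamer in 1.6% and CATTGT in 10.7%. Of the members, 5 of 6 matched a promoter in the table, 8 promoters in all, and Klf5 did not. TTTGCAT was in no promoter of Pou5f1, Nr5a2 or Mybl2, and CATTGT was in 1 of the 2 of Pou5f1 and in none of Nr5a2 or Mybl2, which says only that these letters are not in these windows. The arrays measured no binding, and the matches are a description of the sequence.

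Nanog had its highest ratio on the Cy3 arrays in D0 cells. On the Cy3 arrays it was 2.11 in D0, then 0.551, 0.871, 1.12 and 0.751 on Days 1 to 4 without LIF, and 1.03, 0.895, 0.624 and 1.01 with LIF. On the Cy5 arrays it was 0.700 in D0, then 0.475, 0.548, 0.738 and 0.521 without LIF, and 0.324, 0.582, 0.422 and 0.429 with LIF, the D2-LIF value resting on 1 spot. All 8 EB values lay below D0 on the Cy3 arrays, and 7 of 8 did on the Cy5 arrays, so that D0 did not overlap the EBs of its dye but for D3-LIF in Cy5. The 2 D0 arrays placed Nanog differently against the rest of their slide: 91.4% of the clones of slide 1 lay below it in Cy3 and 6.25% in Cy5.

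Pou5f1 followed the same outline with larger swings between days. On the Cy3 arrays its ratio was 2.18 in D0, then 0.751, 2.15, 0.793 and 1.74 on Days 1 to 4 without LIF, and 1.24, 1.08, 1.05 and 1.77 with LIF. On the Cy5 arrays it was 1.21 in D0, then 0.314, 0.758, 0.422 and 0.594 without LIF, and 0.367, 0.659, 1.38 and 0.448 with LIF. D0 was the highest of the 9 conditions in Cy3, and in Cy5 every EB value but that of D3+LIF lay below it. Day 1 without LIF was the lowest on both dyes. Pou5f1 was above 92.0% of the clones of its slide on the Cy3 array of D0 and above 69.8% on the Cy5 array.

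Taking both dyes together, the Nanog and Pou5f1 clones each lay below the D0 array of the same dye on both arrays in 7 of 8 EB conditions. This count was 7 of 8 both with slides centred and as deposited, although the condition that broke it was D2-LIF with slides centred and, as deposited, D3-LIF for Nanog and D3+LIF for Pou5f1. Among the 8740 clones with a value on all these arrays, 16.9% reached 7 or more with slides centred and 7.16% did as deposited. The count depends on the direction of the ratio: with Cy3 signs turned it was 0 of 8 for both genes, centred or as deposited, and 6.4% and 2.24% of these clones reached 7 or more. For single conditions, the share of clones below D0 on both arrays ran from 23% in D2-LIF to 35% in D4+LIF with slides centred (33.7% in D1-LIF, 30.2% in D3-LIF, 30.8% in D4-LIF, 30.5% in D1+LIF, 32.1% in D2+LIF and 29.6% in D3+LIF).

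In the fit across all clones, with 9 condition means and a term for dye, Nanog was lower than D0 by a log2 difference of -2.34 (SE 0.87) in D4-LIF and -2.33 (SE 0.87) in D4+LIF, and Pou5f1 by -2.06 (SE 0.77) and -2.32 (SE 0.77). The adjusted p in limma was 0.413 for both genes in D4-LIF, 0.161 for Nanog and 0.143 for Pou5f1 in D4+LIF, so neither passed the threshold of 0.05. With the Cy3 array of D0 left out, these differences were -0.78 and -0.78 for Nanog and -1.07 and -1.33 for Pou5f1, and as deposited they were -0.96 and -0.88 for Nanog and -0.67 and -0.87 for Pou5f1. Scaling each slide to an equal spread gave -0.17 and -0.68 for Nanog and -0.29 and -0.95 for Pou5f1, and quantile normalization -0.50 and -0.22 for Nanog and -0.59 and -0.62 for Pou5f1. Without the Cy5 array of D0, which leaves D0 on the array that stands apart, they were -3.89 and -3.89 for Nanog (adjusted p in limma of 0.00376 and 0.00367) and -3.05 and -3.31 for Pou5f1 (adjusted p of 0.0254 and 0.0153). In that setting limma called 27.5% of all clones in D4-LIF and 36.4% in D4+LIF, the background for every passing p given below without this array. If the Cy3 ratios run the other way, they become 1.52 and 1.14 for Nanog and 0.64 and 0.41 for Pou5f1.

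**Figure D2:**
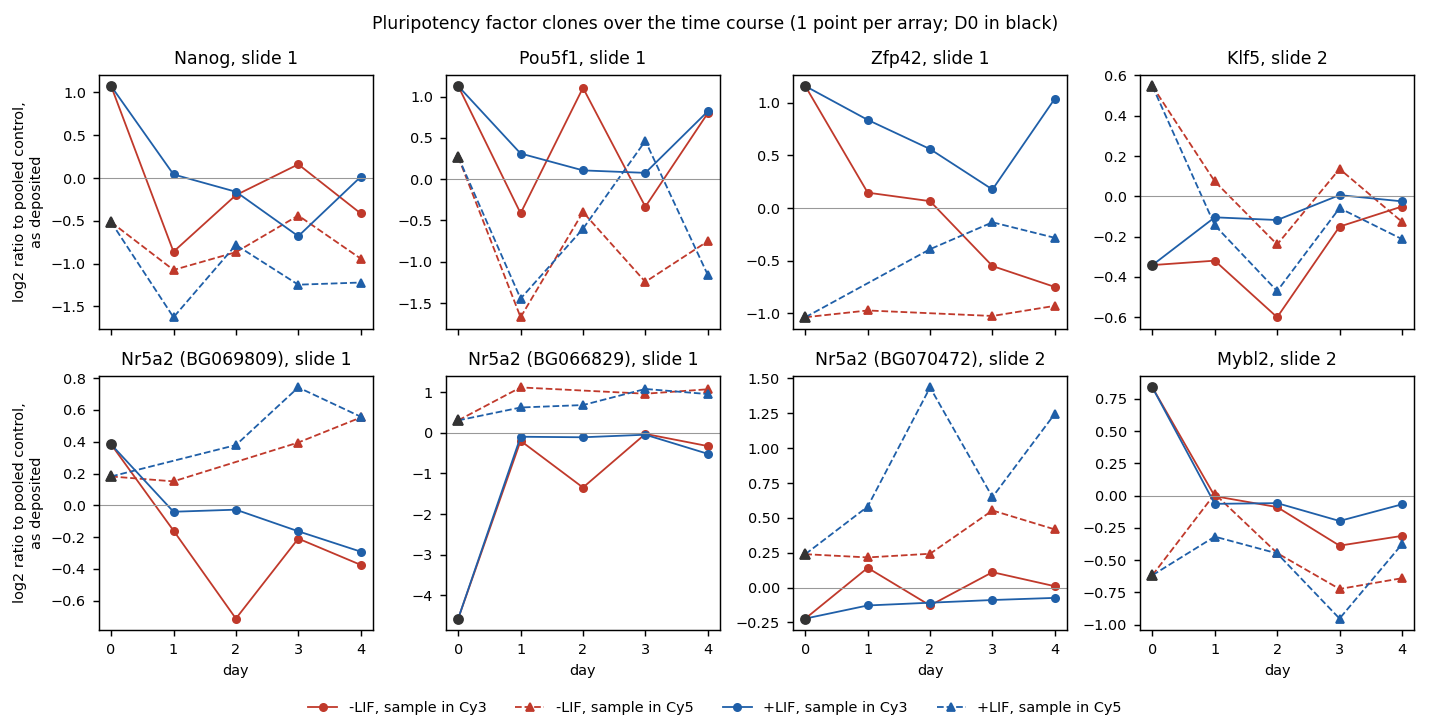
Log2 ratio to the pooled control, as deposited, against day for each of the 8 clones, with 1 point per array: red without LIF, blue with LIF, circles and full lines for the sample in Cy3, triangles and broken lines for the sample in Cy5, and D0, which both courses share, in black (each panel has its own scale). The Cy3 points of Nanog, Pou5f1, Zfp42 and Mybl2 are highest at D0, with ratios of 2.11, 2.18, 2.23 and 1.79, while at D0 the triangle of Zfp42, at 0.487, is the lowest of its dye and that of Mybl2, at 0.652, lies among the EBs.

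Of the 8 clones only Zfp42 was lower without LIF in every pair of arrays, both with slides centred and as deposited. On the Cy3 arrays its ratio was 2.23 in D0, then 1.11, 1.05, 0.683 and 0.595 on Days 1 to 4 without LIF, and 1.79, 1.48, 1.13 and 2.06 with LIF. On the Cy5 arrays it was 0.487 in D0, then 0.509, 0.491 and 0.525 on Days 1, 3 and 4 without LIF, and 0.763, 0.911 and 0.822 on Days 2, 3 and 4 with LIF. It had no value on the Cy5 arrays of D2-LIF and D1+LIF, so the fit had 16 arrays for it and took those conditions from Cy3 alone.

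EBs without LIF thus had the lower Zfp42 ratio in all 6 pairs of arrays of 1 day and 1 dye that could be compared. The log2 difference without LIF minus with LIF, slides centred, was -0.79 on Day 1, -0.08 on Day 2, -0.84 on Day 3 and -1.74 on Day 4 in Cy3, and -0.96 on Day 3 and -0.56 on Day 4 in Cy5. As deposited it ran from -1.79 to -0.50. As deposited, every value without LIF also lay below every value with LIF of the same dye, the closest being 1.11 on Day 1 without LIF and 1.13 on Day 3 with LIF in Cy3. On the arrays that Zfp42 had, this held for 10 of 15360 clones (0.0651%) as deposited and for 17 (0.111%) with slides centred. Values that other clones had on the Cy5 arrays of D2-LIF and D1+LIF were not used. Zfp42 was not among the 17, since its Day 2 value without LIF in Cy3 was then 0.55 against 0.23 on Day 3 with LIF. Among all clones with these 6 pairs, 2.48% were lower without LIF in every pair with slides centred and 2.57% as deposited. Both rules were set to the arrays and the 6 pairs that Zfp42 had, after its values were seen, so these shares do not test it. The mean difference over Days 1 to 4 was -0.83 (SE 0.52), which did not pass the threshold (adjusted p = 0.869 in limma), and it would be 0.14 if the Cy3 ratios ran the other way.

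Against D0 the 2 dyes parted for Zfp42 as deposited. In Cy3 all 8 EB values were below D0, whereas in Cy5 the 6 EB values measured, between 0.491 and 0.911, were all above the 0.487 of D0. The slide 1 median in Cy5 was itself lower in D0, at 0.19 on the log2 scale, than on those 6 EB arrays, at 0.36 to 1.01. How many other clones did the same was not counted. With slides centred all 8 EB values again lay below D0 in Cy3, and in Cy5 so did 3 of 6, those of D1-LIF (-1.98), D3-LIF (-1.66) and D4-LIF (-1.52 against -1.23 in D0, centred log2 ratios). On the D0 arrays 92.2% of the clones of slide 1 lay below Zfp42 in Cy3 and 1.32% in Cy5. The fitted log2 difference from D0 was -2.28 (SE 0.92, adjusted p in limma of 0.413) in D4-LIF and -1.13 (SE 0.92, adjusted p of 0.392) in D4+LIF. With the Cy3 array of D0 left out it was -0.47 and 0.68, as deposited -0.90 and 0.32, and without the Cy5 array of D0 -4.09 and -2.95 (adjusted p in limma of 0.000819 and 0.00324). The D4+LIF value therefore changed sign with the array and with the centring.

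**Figure D3:**
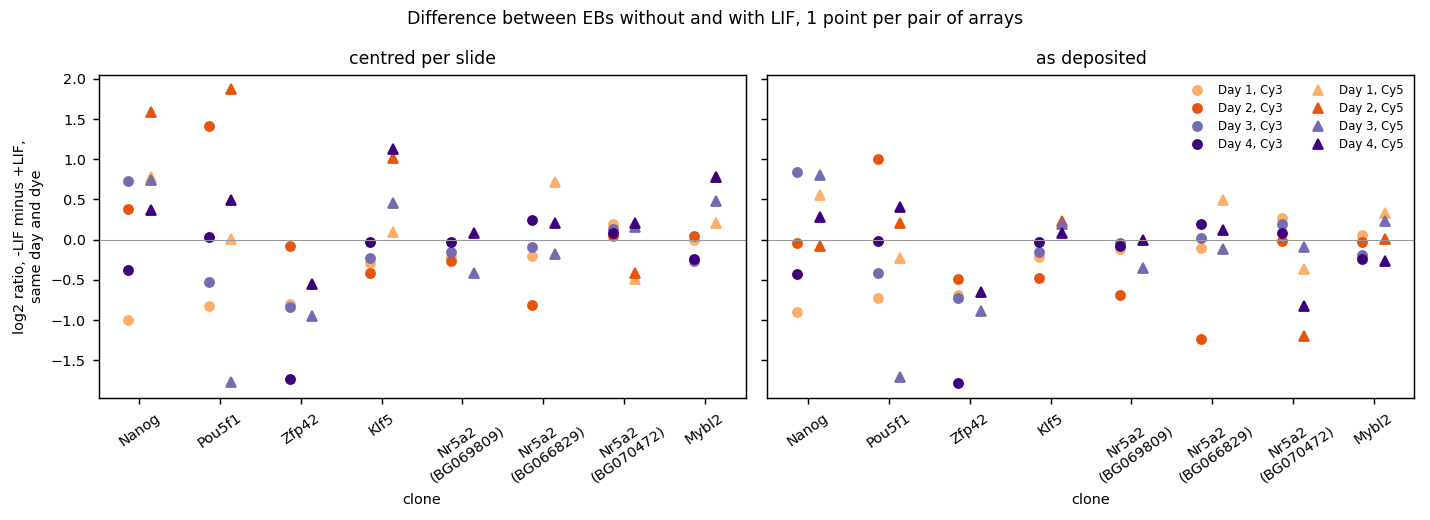
Difference in log2 ratio between EBs without and with LIF of the same day and dye (y axis), with slides centred and as deposited, for each of the 8 clones (x axis), 1 point per pair of arrays, coloured by day, circles for Cy3 and triangles for Cy5. All 6 points of Zfp42 are below 0 in both panels, from -1.74 to -0.08 with slides centred, while the points of the other clones lie on both sides of 0 except those of the Nr5a2 clone BG069809 as deposited.

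Nanog and Pou5f1 did not part by LIF in this even way. With slides centred, Nanog was lower without LIF in 2 of 8 pairs, both in Cy3 (-1.01 on Day 1 and -0.38 on Day 4), and higher in all 4 pairs in Cy5. Pou5f1 was lower in 3 of 8 pairs, with log2 differences from -1.77 on Day 3 in Cy5 to 1.87 on Day 2 in Cy5. As deposited, Nanog was lower in 4 of 8 pairs, 3 in Cy3 and 1 in Cy5, and Pou5f1 in 5 of 8. The Day 2 pair in Cy5, in which slide 1 of D2-LIF lacked most clones, was 1.58 for Nanog with slides centred and -0.09 as deposited. For Pou5f1 it was 0.20 as deposited. The mean over Days 1 to 4 was 0.40 (SE 0.43) for Nanog and 0.09 (SE 0.39) for Pou5f1, with adjusted p in limma of 0.889 and 0.966. The value of Pou5f1 took the opposite sign, -0.19, as deposited.

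Mybl2 on slide 2 resembled Zfp42 in that its D0 arrays disagreed. On the Cy3 arrays its ratio was 1.79 in D0, then 0.997, 0.940, 0.764 and 0.805 on Days 1 to 4 without LIF, and 0.956, 0.960, 0.872 and 0.954 with LIF. On the Cy5 arrays it was 0.652 in D0, then 1.01, 0.734, 0.605 and 0.641 without LIF, and 0.802, 0.733, 0.516 and 0.770 with LIF. D0 stood above all EBs in Cy3, at 96.2% of the clones of its slide, and among them in Cy5, at 6.56%. Slide 2 of the Cy3 array of D0 had a median of -0.31 and an SD of 0.49, so that this Cy3 value does not rest on slide 1, which stood apart. Yet among the Cy3 arrays this slide 2 also had the lowest median and the largest SD. The next were those of D2-LIF, at -0.14 and 0.30.

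The fitted log2 difference of Mybl2 from D0 was -0.83 (SE 0.35, adjusted p in limma of 0.413) in D4-LIF and -1.10 (SE 0.35, adjusted p of 0.139) in D4+LIF. With the Cy3 array of D0 left out it was -0.37 and -0.64, without the Cy5 array -1.29 and -1.56 (adjusted p in limma of 0.0288 and 0.0109), and as deposited -0.59 and -0.33. A fit on the clones of slide 2 alone, added after the data were seen, gave the same difference in D4+LIF with an adjusted p of 0.0446 in limma. That fit called 1312 clones of slide 2. When the D4+LIF array in Cy3 was dropped, the difference was -1.48. This leaves D4+LIF on its Cy5 array, whose slide 2 had the highest median of all slides. Both arrays lay below D0 in 6 of 8 conditions with slides centred and in 3 of 8 as deposited. The share of all clones was taken only for 7 or more conditions (16.9% centred, 7.16% as deposited), which Mybl2 did not reach, so these counts have no background here. Between LIF conditions Mybl2 differed by 0.22 on average (SE 0.18, adjusted p in limma of 0.869).

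Klf5 had a flat course in Cy3 and its highest ratio in D0 cells in Cy5, whereas D0 was highest in Cy3 alone for Zfp42 and Mybl2. Its ratio was 0.789 in D0 and from 0.660 in D2-LIF to 1.00 in D3+LIF on the Cy3 arrays, and 1.46 in D0 and from 0.722 in D2+LIF to 1.10 in D3-LIF on the Cy5 arrays. D0 lay within the EBs in Cy3, where 46.3% of the clones of its slide were below Klf5, and above all 8 EB values in Cy5, where 93.4% were. How many other clones had D0 above every EB value in Cy5 was not counted. The fitted log2 difference from D0 was -0.44 (SE 0.44, adjusted p in limma of 0.720) in D4-LIF and -0.99 (SE 0.44, adjusted p of 0.188) in D4+LIF, against -0.19 and -0.22 as deposited, -0.96 and -1.51 without the Cy3 array of D0 or, with its Cy5 array left out, 0.08 and -0.47. When the D4+LIF array in Cy3 was dropped, the difference in D4+LIF was -1.63. This leaves D4+LIF on its Cy5 array, whose slide 2 had the highest median of all slides. Without LIF Klf5 was lower than with LIF in all 4 pairs in Cy3 (lowest -0.41, on Day 2) and higher in all 4 pairs in Cy5 (highest 1.13, on Day 4). As deposited that Day 4 pair in Cy5 was 0.09. The mean of 0.22 (SE 0.22) did not pass the threshold (adjusted p in limma of 0.889).

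The 3 clones of Nr5a2 gave 3 different courses. BG069809 had spots of 0.443 and 3.85 on the Cy3 array of D0, so that their mean of 1.30 describes neither, and its EB ratios ran from 0.610 to 0.981 in Cy3. Its ratio in Cy5 was 1.13 in D0 and from 1.11 to 1.67 in EBs. BG066829 had a ratio of 0.0420 on the Cy3 array of D0, with 16.7% of the clones of slide 1 below it, against 0.393 to 0.980 in EBs, and in Cy5 1.23 in D0 against 1.54 to 2.17 in EBs. As deposited BG066829 was lowest in D0 on both dyes, its lowest EB value in Cy5, that of D1+LIF, resting on 1 spot. The slide 1 medians of D0, -2.73 in Cy3 and 0.19 in Cy5, were also below those of every EB array with a value for this clone. How many other clones were lowest in D0 on both dyes was not counted. With slides centred the D0 value of BG066829 in Cy5 (0.11) lay above those of D1-LIF (0.107) and D1+LIF (-0.62). BG070472, on slide 2, had 0.857 in D0 and 0.915 to 1.10 in EBs in Cy3, and 1.18 in D0 and 1.16 to 2.71 in EBs in Cy5.

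Accordingly the fitted log2 differences of the 3 Nr5a2 clones from D0 had no common sign. In D4-LIF they were -1.57 (SE 0.74) for BG069809, 1.12 (SE 0.46) for BG066829 and -0.04 (SE 0.22) for BG070472, and in D4+LIF -1.60, 0.90 and -0.19, with adjusted p in limma of 0.196 or more. With the Cy3 array of D0 left out, they shrank to -0.06, 0.28 and -0.02 in D4-LIF and -0.09, 0.06 and -0.17 in D4+LIF. Without the Cy5 array they were -3.09 and -3.11 for BG069809 (adjusted p in limma of 0.000377 and 0.000394) and 1.97 and 1.74 for BG066829 (adjusted p of 0.00331 and 0.00563). Leaving out spots of a pair that differed by over 1 on the log2 scale, as those of BG069809 did on the Cy3 array of D0, gave -0.06 and -0.09 for BG069809 and 1.46 and 1.23 for BG066829. As deposited BG069809 was -0.19 and -0.15, BG066829 2.51 and 2.35, and BG070472 0.20 and 0.58. Taking the average of the 3 clones before the fit gave -0.16 and -0.30. Between LIF conditions the means were -0.27, -0.10 and -0.01. BG069809 was lower without LIF in 5 of 6 pairs with slides centred and in 6 of 6 as deposited, with differences between -0.41 and 0.08 when centred. It lacked the same 2 Cy5 arrays as Zfp42.

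**Figure D4:**
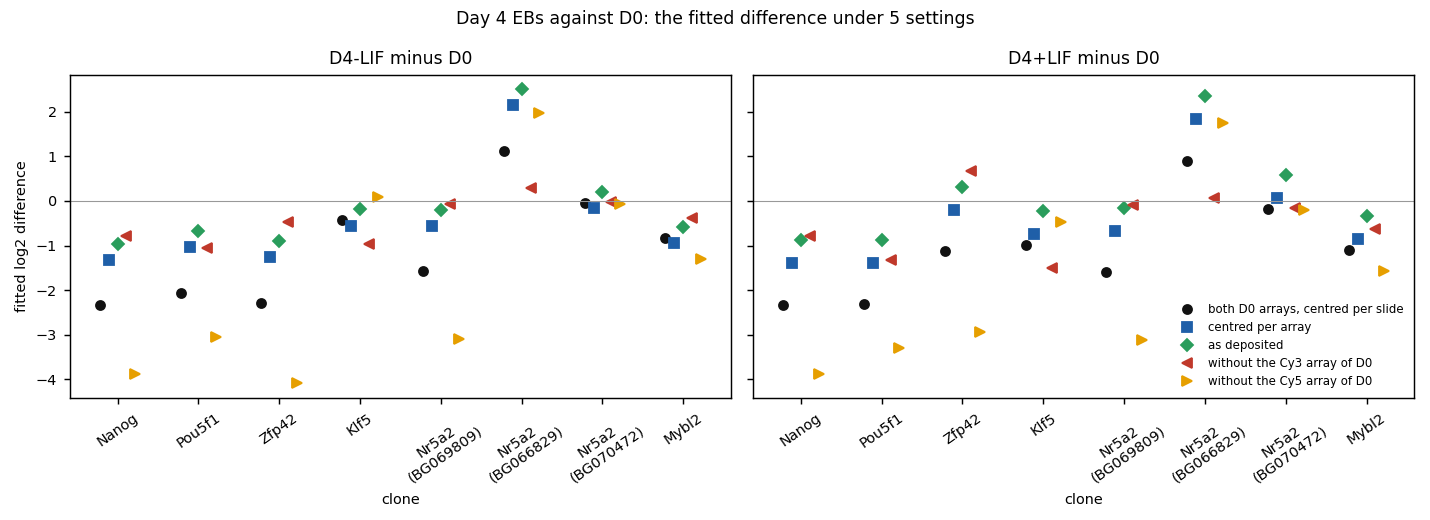
Fitted log2 difference of D4-LIF and of D4+LIF EBs from D0 (y axis) for the 8 clones (x axis), with 5 settings side by side: both D0 arrays with slides centred, arrays centred as a whole, values as deposited, and with either D0 array left out. The clones of slide 1 move most, Nanog in D4-LIF from -3.89 with the Cy5 array of D0 left out to -0.78 with the Cy3 array left out, and Zfp42 in D4+LIF crosses 0.

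Across all clones limma called 0 of 15360 at an adjusted p under 0.05 in each of the 15 contrasts and in the test of any difference among the 9 conditions, a share of 0% each time, so that a member had no background of calls to be read against. At an unadjusted p under 0.05 it was 1814 clones (11.8%) in D4-LIF against D0, 4086 (26.6%) in D4+LIF against D0, and 528 (3.44%) in the mean difference by LIF. At that unadjusted threshold 5 of the 8 member clones (Nanog, Pou5f1, Zfp42, Mybl2 and Nr5a2 BG066829) were counted in D4-LIF, 4 (Nanog, Pou5f1, Klf5 and Mybl2) in D4+LIF and 0 by LIF. In the test over all 9 conditions Pou5f1 had the smallest p of the members (adjusted p = 0.781 in limma).

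Of the genes chosen as companions, 20 of 37 other pluripotency factors and ES cell genes were on the array, with 35 clones. In D4-LIF 22 of these 35 clones (62.9%) were below D0 on both dyes, against 30.8% of all clones, and their median log2 difference was -0.69 against -0.004 over all clones. As deposited it was 10 of 35 (28.6%) against 10.4%. In Cy5 alone 25 of 35 (71.4%) were below D0, against 54.1%, and with the Cy3 array of D0 left out the median was -0.185 against -0.028. With Cy3 signs turned the count was 3 of 35 (8.57%), against 23.4% of all clones. In D4+LIF the centred count was again 22 of 35, against 35% of all clones, with a median of -1.003. With the Cy3 array of D0 left out that median was -0.184, against -0.018 over all clones. In D4+LIF the count was 10 of 35 (28.6%, against 11.4%) as deposited and 6 of 35 (17.1%, against 19.6%) with Cy3 signs turned. In Cy5 alone it was 28 of 35 (80.0%, against 54.5%). Without LIF against with LIF on Day 4 the centred count was 9 of 35 (25.7%) against 29.4%. Of this list Trim28, a co-repressor that ES cells need, and Rest, a repressor of neuronal genes, had the smallest p over the 9 conditions (adjusted p of 0.781 in limma for both). Their log2 differences from D0 in D4-LIF were -2.35 and -1.97, or -1.60 and -0.93 when D0 rested on Cy5 alone. Trim28 had ratios of 1.31 and 0.860 in D0, 0.756 and 0.388 in D4-LIF, and 0.803 and 0.408 in D4+LIF (Cy3, then Cy5). Rest had 1.13 and 0.888, 0.797 and 0.558, and 1.24 and 0.686 in the same order.

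For LIF and STAT3 signalling, 9 of 16 genes were on the array with 18 clones, of which 8 (44.4%, against 30.8% of all clones) were below D0 on both dyes in D4-LIF with slides centred and 1 (5.56%, against 10.4%) as deposited, so that the list changed sides of the background with the centring. With Cy3 turned it was 5 (27.8%, against 23.4%), and 4 (22.2%, against 29.4%) were lower without LIF than with it on Day 4. Its leading genes were the adaptor Grb2 (log2 difference from D0 of -1.88 in D4-LIF, or -0.90 with D0 in Cy5 alone) and the kinase Jak1 (0.82 and 0.24, likewise). Of cell cycle genes that the MuvB complex and Mybl2 control, 18 of 23 were present with 25 clones, and 9 (36%, against 30.8% of all clones) were below D0 on both dyes in D4-LIF and 16 (64%, against 35%) in D4+LIF with slides centred. As deposited both counts were 5 (20%, against 10.4% and 11.4%), and with Cy3 turned both were 2 (8%, against 23.4% and 19.6%). In Cy5 alone they were 11 (44%, against 54.1%) in D4-LIF and 18 (72%, against 54.5%) in D4+LIF. On Day 4, slides centred, 4 of the 25 clones (16%, against 29.4%) were lower without LIF than with it on both dyes. Higher on both dyes were 15, against 4715 of 15359 clones in all. As deposited 5 (20%, against 43.7%) were lower without LIF. Rbbp4, a histone chaperone of that complex, led this list (log2 difference from D0 of -0.12 in D4-LIF and -0.84 in D4+LIF), followed by the mitotic kinase Cdk1 (-2.26 and -2.49). Without the Cy3 array of D0 these were 0.05 and -0.67 for Rbbp4 and -1.21 and -1.44 for Cdk1. All genes named from these lists had an adjusted p of 0.781 in limma over the 9 conditions.

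Markers of other cell types that EBs could hold were fewer on the array. Of mesendoderm genes 1 of 13 was present, Eomes. With slides centred its clone was above D0 on both dyes in D4-LIF (log2 difference from D0 of 1.24), as were 4198 of all 15360 clones. Of primitive ectoderm genes 4 of 7 were present, led by Dnmt3a (log2 difference from D0 in D4-LIF of 0.23, as in the parentheses that follow) and Pou3f1 (-0.29). Extraembryonic endoderm had 10 of 17 genes with 21 clones, led by Sparc (-2.55) and Lamb1 (0.12). With slides centred 7 clones (33.3%) were below and 8 above D0 on both dyes in D4-LIF. Those below were 5 (23.8%) as deposited and 3 (14.3%) with Cy3 turned. Of all clones 30.8%, 10.4% and 23.4% were below, in the same order. Neurectoderm had 2 of 6, Tubb3 (-1.90) and Nes (-0.75), and trophoblast 4 of 7 genes with 8 clones, 6 (75%) below D0 on both dyes with slides centred, 2 (25%) as deposited and 0 with Cy3 turned (all clones 30.8%, 10.4% and 23.4%), led by the keratins Krt8 (-1.34) and Krt18 (-2.17). The fibroblast list had 5 of 7 genes with 9 clones, led by Col1a1 (0.29) and Col3a1 (0.01). In D4-LIF 1 clone (11.1%) was below D0 on both dyes with slides centred, 0 as deposited and 3 (33.3%) with Cy3 turned. The shares of all clones were again 30.8%, 10.4% and 23.4%. With the Cy3 array of D0 left out, the log2 differences from D0 in D4-LIF changed most on slide 1: Eomes was 0.31, Pou3f1 -0.38, Sparc -1.47, Tubb3 -0.56, Nes -0.09, Krt8 -0.09 and Krt18 -0.42, while on slide 2 Dnmt3a was 0.33, Lamb1 0.03, Col1a1 0.17 and Col3a1 0.13. On the Cy5 array of D4+LIF those collagens had ratios of 5.67 and 7.20 as deposited. Their slide there had a median of 1.57 on the log2 scale, the highest of all slides, and an SD of 1.41, so these ratios include a high slide level. The part of these collagens in the other values was not tested.

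Genes whose course over the arrays was most like that of a member were found by the correlation of centred log2 ratios over the 9 Cy3 arrays and over the Cy5 arrays apart, the lower of both being the likeness, over 9858 clones. For Nanog they were Wtap (0.979), Tmed7 (0.972) and Trap1a (0.971), for Pou5f1 Jpt1 (0.983), Tardbp (0.983) and Atp5c1 (0.981), and for Zfp42 Cdk5rap3 (0.948), Riok3 (0.934) and Brca2 (0.931). For Klf5 they were Ap1b1 (0.876), Exd2 (0.854) and Crybg3 (0.850), for Mybl2 Cltc (0.928), 1810037I17Rik (0.918) and Oga (0.913), and for Nr5a2 BG070472 Best1 (0.881), Cdkn3 (0.866) and H2-Ke6 (0.860). The Cy5 correlation rested on 9 arrays, except for Jpt1, Oga and the 3 genes of Zfp42, where it rested on 7. Of these 18 genes 17 lay on the slide of their member and 8 in the same printed grid, a block that holds 1.01% of the clones compared. For Zfp42 it was 2 of 3 and for Nr5a2 3 of 3. What part position on the slide has in these likenesses was not tested.

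Among the members themselves the correlation in Cy3 leaned on D0. Nanog and Pou5f1 had r = 0.91 over 9 Cy3 arrays, 0.62 over the 8 without D0 and 0.81 over 9 Cy5 arrays. Nanog and Zfp42 had 0.89, 0.33 and, over 7 Cy5 arrays, 0.12, and Zfp42 and Mybl2 0.96, 0.81 and -0.78. Zfp42 and the Nr5a2 clone BG069809 had 0.91, 0.58 and, over 7 Cy5 arrays, 0.82, close to the values of Nanog and Pou5f1. These values are descriptions over arrays that share a pool, and no share over pairs of other clones was taken.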

How the data were processed

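Values are the ratios the authors deposited, 1 per spot and array on a linear scale (18 arrays, 34560 spots each). Per the study's methods, images were read in ImaGene and each channel was divided by its mean intensity. A cut-off from blank spots was then used there to filter gene lists, and the sources used here do not say whether it or any other step was applied to the deposited ratios. The direction of the ratio is not stated. Ratios were put on the log2 scale, both spots of a clone were averaged, 3840 spots at the edges of the printed grids were left out, and the 15360 clones were centred per slide and array. All 10140 clones with an annotated sequence had the same annotation at both spots. No array file gives counts or spot intensities, so depth and signal over background are not known here and the number of arrays limits the precision. The labels speak of 2 biological sets and of different RNA samples for repeated arrays, but do not say which array belongs to which set, so p-values measure the spread between these arrays. Dye and replicate coincide.

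limma 3.58.1 in R 4.3.3 was fitted to clones with a value in every condition (9 condition means and dye, lmFit and eBayes, Benjamini-Hochberg over all clones), in place of the study's SAM on duplicate spots, since spots of 1 array are not replicates. It was tested on simulated data. Missing values were dropped, not imputed. Both spots disagreeing was handled only as an alternative. Named genes were all member clones, in each companion list the 2 genes of smallest p over the 9 conditions (none passed the threshold), and the 3 genes most like each member. The members and lists were chosen with earlier results of these data known. Gene names come from the probe table (9866 clones with 1 symbol, 274 with several, 5220 with none), and promoters from RefSeq.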

Additional observations from a re-analysis of the deposited data

Results flagged for a closer look

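With slides centred, the difference between EBs without and with LIF took opposite signs on both arrays of different days for 2 clones. For Pou5f1 it averaged -1.15 on Day 3 against 1.65 on Day 2, a gap of -2.79, and against 0.26 on Day 4, a gap of -1.41. As deposited, the Cy3 pair of Day 4 was slightly below 0 (-0.02), so that only the contrast of Day 3 with Day 2 kept opposite signs on all its arrays. The Cy5 array of D2-LIF, on which slide 1 lacked most clones, enters the Day 2 value. For the Nr5a2 clone BG066829 it averaged -0.14 on Day 3 against 0.22 on Day 4, a gap of -0.36. As deposited its Cy3 pair of Day 3 was 0.02 against -0.12 in Cy5, so that the opposite signs were lost. None of these differences between days was tested.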

How the results depend on the processing

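Counts of clones called by limma, 0 in each main contrast, depended on single arrays. Leaving out 1 array at a time, against D0 they ran from 0 to 5010 in D1-LIF, 3348 in D2-LIF, 4756 in D3-LIF, 4224 in D4-LIF, 4514 in D1+LIF, 4747 in D2+LIF, 5304 in D3+LIF and, for D4+LIF, 5594, each highest without the Cy5 array of D0. By LIF they ran from 0 to 1613 on Day 1, 294 on Day 2, 0 on Day 3, 1782 on Day 4 and 659 for the mean, for the trends to 3910 without and 5485 with LIF, and for any difference to 2495. The highest counts by LIF came without the Cy3 arrays of D1+LIF (Day 1 and mean), D2-LIF and D4+LIF. Centring whole arrays called 149 clones in D1-LIF, 131 in D4+LIF, on Day 3 96 without and 70 with LIF, and 108 in the trend with LIF. Equal spread called 6 in D1+LIF and 8 by LIF on Day 1. Quantile normalization called 2 in the trend without LIF and 1 in each of D2-LIF, D3-LIF, D4-LIF, the 4 conditions with LIF, LIF on Day 1, the trend with LIF and any difference. Clones with every value called 53 in D1-LIF, 536 in D4+LIF and 137 in the trend with LIF. Dropping discordant spots called 2 in D1-LIF, D2-LIF and the trend with LIF, and 1 in the other D0 contrasts, LIF on Day 2 and the trend without LIF. Gene averages called 5 in D1-LIF, 4 in D4+LIF and likewise in D3-LIF, 3 in D3+LIF, 1 in D1+LIF and 2 in the trend with LIF. Slide 2 alone, added after seeing the data, called 1312 in D4+LIF, 49 in D1-LIF, on Day 3 8 without and 39 with LIF, and 659 in the trend with LIF. The fit without the replicate block, that is without the dye term, called 0 in every contrast, as did uncentred values, array weights and turned Cy3 signs. The causes were not tested.

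Of 657 values of members tested under an alternative (Day 4 against D0 and the mean by LIF), 592 kept their direction and stayed on the same side of the threshold, 15 kept it and passed, and 50 changed sign. Many of the 592 could not have moved, since leaving out an array of a condition outside the contrast does not change the fitted difference. Nanog in D4-LIF against D0 stayed at -2.34 in each such fit, and also without the dye term and with array weights. The 592 therefore do not measure how stable these values are. Of 45 values on 1 dye alone, which have no test, 38 kept their direction and 7 did not. With Cy3 signs turned, D4-LIF and D4+LIF against D0 became 1.52 and 1.14 for Nanog, 0.64 and 0.41 for Pou5f1, 1.99 and 1.40 for Zfp42, 1.55 and 1.49 for BG069809, -0.75 and -0.74 for BG066829, and 0.59 and 0.076 for Mybl2, and the mean by LIF 0.14 for Zfp42 and 0.26 for BG066829. With equal spread Zfp42 became 0.21 and 1.22 against D0, and the means by LIF -0.48 (Pou5f1), -0.16 (Klf5), -0.23 (Mybl2) and 0.054 (BG070472). With quantile normalization Zfp42 in D4+LIF became 0.80, and those means -0.45, -0.39, -0.19 and 0.14. As deposited, Zfp42 in D4+LIF became 0.32, BG070472 0.20 and 0.58 against D0, and the means -0.19 (Pou5f1), -0.019 (Klf5) and -0.013 (Mybl2). Whole-array centring gave -0.13 for the Pou5f1 mean and 0.063 for BG070472 in D4+LIF, and gene averages -0.16 and -0.30 for BG066829. On Cy3 alone the means were -0.068 (Nanog), -0.24 (Klf5), -0.12 (Mybl2) and 0.12 (BG070472), and Klf5 against D0 was 0.023 and 0.047. On Cy5 alone Zfp42 in D4+LIF was 0.27. Leaving out 1 array, the mean by LIF ran from -0.16 to 0.34 for Pou5f1, -0.24 to 0.075 for BG066829 and -0.092 to 0.076 for BG070472, Zfp42 in D4+LIF from -2.95 to 0.68, and Klf5 in D4-LIF from -0.96 to 0.083. The mean by LIF of Zfp42 ran from -0.98 to -0.67. Leaving an array out of a condition assumes that its lone array varies like the other conditions.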
